A study of Mus musculus with 24 samples.

Results

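A set of 418 genomic regions carried a Foxa peak in all 3 lines of induced hepatocyte-like (iHep) cells, out of 16880 regions that carried a Foxa peak in any of them. The regions were found by merging overlapping peaks (at least 1 bp) of 9 deposited chromatin immunoprecipitation sequencing (ChIP-seq) peak lists, 3 for each line, and keeping merged regions that held a peak of at least 1 list of each line. They were thus selected on the peak calls of those 9 lists, so that their presence, number of lists, rank and width in these lists are given as a description, with no test. Another 2766 regions held a peak in exactly 2 lines and 13696 in exactly 1 line. Over all 14 lists of the series, the 26332 peaks merged into 18022 regions.

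iHep cells are fibroblasts that have been driven towards a liver-like state by introduced transcription factors. Here they came from C57BL/6 mouse embryonic fibroblasts of embryonic day 13.5. The label of line 4a1 gives infection with Foxa1 and Hnf4alpha and a Foxa1 antibody, that of line 4a2 Foxa2 and Hnf4alpha and a Foxa2 antibody, and that of line 4a3 Foxa3 and Hnf4alpha and a Foxa3 antibody. Each line gave 2 Foxa lists whose library titles carry the term EGS and 1 list without it (non-EGS). A Flag antibody, directed at an epitope tag, gave 1 EGS list in line 4a2 and 1 in line 4a3, and the labels do not say which protein was tagged. Hepatocytes from livers of 10-week-old C57BL/6 adults, with no introduced factor named, gave 1 EGS list for each of the 3 Foxa antibodies, all with the number 4 in their titles. Differences between lines cannot be told apart from differences between introduced Foxa factors or between antibodies, since all of these vary at once. Every line also received Hnf4alpha, and EGS is not spelled out in the labels.

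The Foxa proteins are forkhead transcription factors whose DNA-binding domains are closely related and recognise a common motif. The fold of that domain resembles linker histone, and Foxa proteins can bind target DNA that is wrapped on nucleosomes, for which they are called pioneer factors. In the liver they bind enhancers of hepatocyte genes, often near sites of the nuclear receptor Hnf4alpha. All coordinates are of the mouse build mm9. No sequence and no gene is given for a region, since the tables at hand were of another build.

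The 9 lists contributed unequally. In line 4a2, 221 of the 418 regions (52.9%) held a peak of EGS replicate 1, 229 (54.8%) of EGS replicate 2 and 406 (97.1%) of the non-EGS list. In line 4a1, 294 regions (70.3%) held a peak of EGS replicate 1, 157 (37.6%) of EGS replicate 2 and 301 (72.0%) of the non-EGS list. In line 4a3, 192 (45.9%) held a peak of EGS replicate 1, 1 (0.239%) of EGS replicate 3, a list of 46 peaks, and 315 (75.4%) of the non-EGS list. Line 4a3 was therefore the least redundant of the lines in these regions. A peak of 1 Foxa3 list alone placed line 4a3 in 329 of the 418 regions, whereas 1 list alone stood for line 4a1 in 178 and for line 4a2 in 134.

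Few regions were found in nearly all lists. There were 74 regions in 3 lists, 94 in 4, 83 in 5, 95 in 6, 44 in 7, 27 in 8 and 1 in all 9. An EGS peak of every line was present in 134 regions and a non-EGS peak of every line in 218, but only 48 regions had both. In 57 regions each line was represented by at least 2 lists. The heat map of the 14 lists shows this unevenness, with the non-EGS Foxa2 column nearly full and the EGS replicate 3 column of Foxa3 nearly empty.

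**Figure D1:**
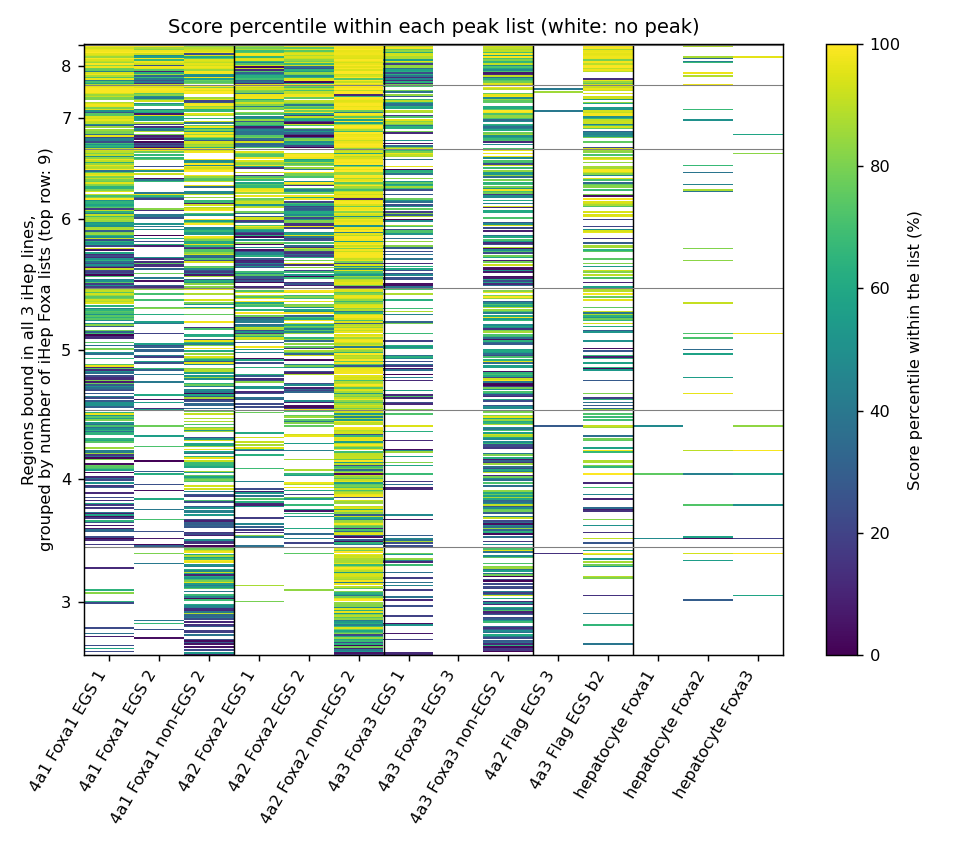
Each row is 1 of the 418 regions bound in all 3 lines, grouped by the number of iHep Foxa lists that hold it, and each column is 1 of the 14 lists. Colour gives the percentile of the region's best peak score within the list (100 is the highest score of the list) and white means no peak. The non-EGS Foxa2 column holds 406 regions and the Flag column of line 4a3 holds 186, mostly in the upper rows.

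The share of a list's peaks that lay in the shared regions differed widely between lists. The shared regions took up 32.3% and 30.4% of the peaks of the 2 Foxa1 EGS lists, 23.7% and 23.4% of those of the 2 Foxa2 EGS lists, 16.1% of those of Foxa3 EGS replicate 1 and 2.17% (1 of 46 peaks) of those of Foxa3 EGS replicate 3. Of the non-EGS lists they took up 8.80% in line 4a1, 3.57% in line 4a2 and 7.88% in line 4a3. List lengths differ, the library depth behind a list is unknown, and the part of either in these shares was not tested.

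In the non-EGS lists the median rank of the shared regions was highest for Foxa2 and lowest for Foxa3, an order that the EGS lists did not all share. Rank is expressed here as the percentile of a peak's score within its own list, since the scores of different lists are on scales that cannot be set side by side. The 3 non-EGS lists hold 11408 peaks (Foxa2), 3431 (Foxa1) and 4317 (Foxa3), and a percentile in a longer list reaches further down, so the values describe each list and are not compared by a test. In the non-EGS Foxa2 list the 406 regions ranged from percentile 0.824 to percentile 100, with a median of 90.8, and 211 of them (52.0%) lay in the top 10% of the list. In the non-EGS Foxa1 list the 301 regions ranged from 0.0291 to 100, with a median of 67.5, and 76 (25.2%) lay in the top 10%. In the non-EGS Foxa3 list the 315 regions ranged from 0.255 to 99.7, with a median of 57.8, and 36 (11.4%) lay in the top 10% and 140 (44.4%) in the lower 50% of the list. Foxa3 peaks of the shared regions were thus spread over that list almost as its other peaks were. In the EGS lists the lines differed less, with medians of 64.5 and 56.3 for Foxa1, 63.1 and 68.1 for Foxa2, and 52.0 for Foxa3 replicate 1, in which 14 of 192 regions (7.29%) lay in the top 10%.

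**Figure D2:**
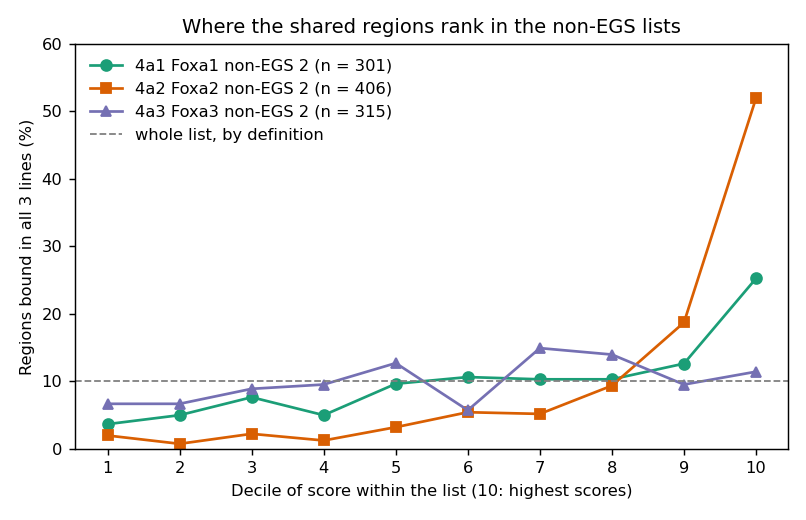
The share of the regions with a peak in each non-EGS list (y axis, %) is plotted by decile of the score within that list (x axis, 10 holds the highest scores), with a dashed line at the 10% that the whole list has by definition. The top 10% holds 52.0% of regions for Foxa2 (n = 406), 25.2% for Foxa1 (n = 301) and 11.4% for Foxa3 (n = 315).

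Score ranks were mostly only weakly related between lists, for lists of 1 line as for lists of different lines. Over the 299 regions with a non-EGS peak in lines 4a1 and 4a2, the rank correlation of the score percentiles was 0.48 (Spearman's rho). It was 0.15 over 218 regions for lines 4a1 and 4a3, and 0.056 over 311 regions for lines 4a2 and 4a3. Of the 28 pairs of lists with at least 20 regions in common, the 21 pairs of different lines had rho between -0.04 and 0.48 (median 0.20) and the 7 pairs within a line between -0.18 and 0.58 (median 0.26). Regions are not replicates, and the points of a pair share both libraries, so these values only describe the lists.

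The peaks of the lines lay close together inside the regions. The joining of overlapping peaks in part sets such closeness, for lists of 1 line as for lists of different lines, so the values only describe the regions. In 409 of the 418 regions the 3 lines had at least 1 base in common, over a stretch of 6 to 653 bp with a median of 154 bp, and in 368 regions this stretch was at least 100 bp long. The other 9 regions had no base covered by all 3 lines and were joined as chains of overlapping peaks. The midpoints of the non-EGS peaks were a median of 23 bp apart between lines 4a1 and 4a2, and 91.3% of the 299 regions had them within 100 bp. They were 50.8 bp apart between lines 4a1 and 4a3 (74.3% of 218 regions within 100 bp) and 56.5 bp apart between lines 4a2 and 4a3 (70.1% of 311). Peaks of different lines were about as close as peaks of 1 line: median distances were 23 to 56.5 bp over the 21 pairs of lists of different lines and 25 to 47.5 bp over the 7 pairs of lists of the same line. The regions were 152 to 5834 bp wide with a median of 608 bp, against 546 bp for regions of 2 lines and 380 bp for regions of 1 line. Width was in part set by the merging, which widens a region with each peak added.

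**Figure D3:**
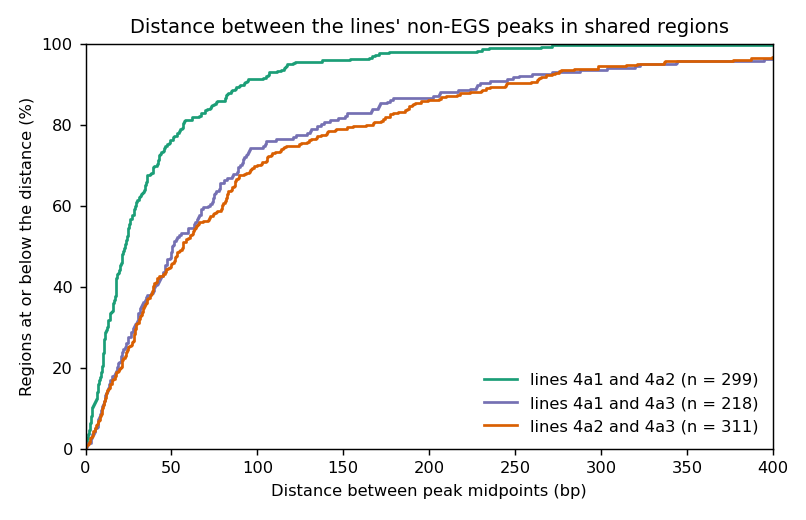
The cumulative share of shared regions (y axis, %) is plotted against the distance between the midpoints of the non-EGS peaks of 2 lines (x axis, bp), for the 3 pairs of lines. The curve of lines 4a1 and 4a2 rises first, with a median of 23 bp, and the 2 curves that include line 4a3 lie close to each other, with medians of 50.8 and 56.5 bp.

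The 5 lists that the choice of regions did not use, 2 Flag and 3 hepatocyte lists, were set against the regions next. The Flag list of line 4a3 had a peak in 186 of the 418 shared regions (44.5%, exact 95% Clopper-Pearson interval 39.7 to 49.4), in 7.95% of the regions of 2 lines, in 1.31% of the regions of 1 line and in 3.47% of all 16880 regions. The lowest score in that Flag list was 50, against lowest scores between 5 and 5.87 in the other 13 lists, so its threshold or its scale differed, and how its share would stand at a like threshold was not tested. The Flag list of line 4a2, with 21 peaks in all, had a peak in 7 shared regions (1.67%, interval 0.676 to 3.42), in 0.145% of regions of 2 lines and in 0.077% of all regions. The hepatocyte Foxa2 list had a peak in 33 shared regions (7.89%, interval 5.50 to 10.9), against 1.01% of regions of 2 lines and 0.752% of all regions. Which list set the shared regions apart most depended on the scale. In percentage points it was the Flag list of line 4a3, with 883 peaks. As a ratio of the share in 3-line regions to that in 2-line regions it was the Flag list of line 4a2 (11.6, from 7 and 4 regions), followed by hepatocyte Foxa2 (7.80, 244 peaks) and the Flag list of line 4a3 (5.59).

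The other hepatocyte lists differed less. The ratio was 4.04 for hepatocyte Foxa3 (from 11 and 18 regions) and 3.31 for hepatocyte Foxa1 (from 3 and 6 regions). The Foxa3 list of hepatocytes had a peak in 11 shared regions (2.63%, interval 1.32 to 4.66), against 0.651% of regions of 2 lines, 1.77% of regions of 1 line and 1.61% of all regions. Among regions of 2 lines this share was 0.292% for lines 4a1 and 4a2 and 2.56% for the 351 regions of lines 4a2 and 4a3. In the 20 regions of lines 4a1 and 4a3, 2 held such a peak. Regions of line 4a3 alone held it in 4.69% of 4070. The shared regions thus did not stand clearly above other regions with a Foxa3 peak of line 4a3. The Foxa1 list of hepatocytes had a peak in 3 shared regions (0.718%, interval 0.148 to 2.08), against 0.217% of regions of 2 lines, 0.694% of regions of 1 line and 0.616% of all regions. For both of these lists the intervals of the shared regions and of the regions of 1 line overlap. A peak of any hepatocyte list was found in 37 shared regions (8.85%, interval 6.31 to 12.0), in 1.55% of regions of 2 lines, in 2.39% of regions of 1 line and in 2.42% of all regions. This rested on 1 list: without hepatocyte Foxa2, 2.63% of the shared regions held a hepatocyte peak. Regions of line 4a1 alone reached nearly the same share, 99 of 1120 (8.84%), of which 93 held a Foxa1 peak of hepatocytes and 40 (3.57%) a Foxa2 peak. A hepatocyte peak of any kind therefore did not set the shared regions apart from those of line 4a1, while a hepatocyte Foxa2 peak was more frequent in the shared regions. The intervals cover counting error only.

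**Figure D4:**
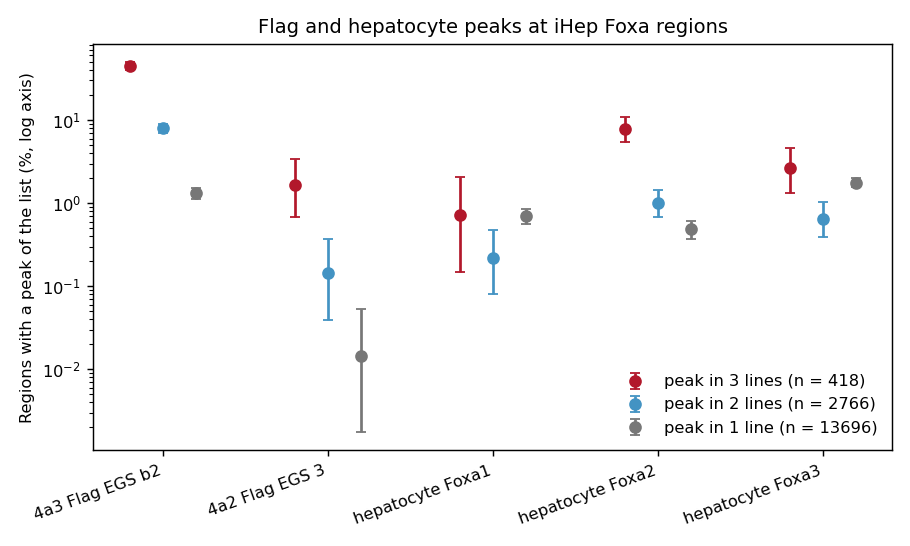
The share of regions with a peak of each list that the choice did not use (y axis, %, log scale) is shown for regions of 3 lines (n = 418), 2 lines (n = 2766) and 1 line (n = 13696), with exact 95% Clopper-Pearson intervals as bars. The 3-line regions stand at 44.5% for the Flag list of line 4a3 and at 7.89% for the hepatocyte Foxa2 list, and their bars overlap those of the 1-line regions for hepatocyte Foxa1 and Foxa3.

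The 5 lists, each of a different antibody or cell source, were taken as the units of the test. The percentage of shared regions with a peak exceeded that of 2-line regions in 5 of 5 lists, by 9.49 ± 15.3 percentage points (mean ± SD, n = 5 lists). The differences were 36.5 points for the Flag list of line 4a3, 6.88 for hepatocyte Foxa2, 1.98 for hepatocyte Foxa3, 1.53 for the Flag list of line 4a2 and 0.50 for hepatocyte Foxa1. An exact two-sided sign-flip permutation test gave p = 0.063, the smallest that 5 lists allow, and 0.125 after Benjamini-Hochberg adjustment over 2 tests, so the comparison cannot pass 0.05. Without the Flag list of line 4a3 the mean difference was 2.72 points. By the rule every shared region has a Foxa3 peak of line 4a3. Of the 2766 2-line regions, 2395 pair lines 4a1 and 4a2 and have none. In the 351 regions of lines 4a2 and 4a3, 12.8% held a Flag peak of line 4a3 and 0.570% one of line 4a2. A hepatocyte peak was held there by 2.56% (Foxa3), 0.855% (Foxa2) and 0.285% (Foxa1). The part of this make-up in the differences was not tested. The titles of the 3 hepatocyte libraries carry the same number and the same R code, which the labels do not explain, so it is not known whether the 5 lists are independent of each other.

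Peaks of these lists were not uniformly stronger inside the shared regions. The difference of the median score percentile inside and outside them was 35.4 for the Flag list of line 4a3 (79.1 inside, 43.7 outside), 20.3 for hepatocyte Foxa2 and 8.30 for hepatocyte Foxa3. It was -3.01 for hepatocyte Foxa1 (4 peaks inside) and -7.14 for the Flag list of line 4a2 (8 peaks inside). The mean over the lists was 10.8 ± 17.4 (SD, n = 5 lists), higher in 3 of 5, with an exact two-sided sign-flip permutation p of 0.3125, unchanged by adjustment.

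The 883 Flag peaks of line 4a3 were concentrated by rank. Of the 100 with the highest scores, 66 lay in shared regions, whereas of all 883 peaks 192 (21.7%) did. Another 171 Flag peaks lay in regions of lines 4a1 and 4a2, with no Foxa3 peak of line 4a3. As a share of regions, a Flag peak of line 4a3 was present in 186 of the 418 regions of 3 lines (44.5%), in 45 of 351 regions of lines 4a2 and 4a3 (12.8%, interval 9.51 to 16.8) and in 170 of 2395 regions of lines 4a1 and 4a2 (7.10%, interval 6.10 to 8.20). Only 20 regions paired lines 4a1 and 4a3, of which 5 held a Flag peak. A further 174 Flag peaks lay in regions of 1 line, and 300 (34.0%) lay in no iHep Foxa region at all, at a median score percentile of 33.3.

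A Flag peak of line 4a3 was more frequent in regions found in more Foxa lists. Its share was 18.9% in shared regions of 3 lists, 30.9% of 4, 42.2% of 5, 53.7% of 6, 75.0% of 7 and 85.2% of 8 lists. In regions of exactly 2 lines it was 3.32% of 2 lists, 12.0% of 3, 20.5% of 4, 33.3% of 5 and 59.5% of 6. At equal numbers of lists the shares of 3-line and 2-line regions lay much closer than the totals of 44.5% and 7.95%, and the intervals overlap at 3, 4, 5 and 6 lists. Against the 836 regions of 2 lines in at least 3 lists, of which 18.7% held a Flag peak of line 4a3, the difference was 25.8 points. The share with a hepatocyte peak was 5.41% in shared regions of 3 lists, 6.38% of 4, 8.43% of 5, 8.42% of 6, 9.09% of 7 and 29.6% of 8. Only the value at 8 lists, from 8 of 27 regions (interval 13.8 to 50.2), stood apart, and the 1 region of 9 lists held no hepatocyte peak. In 2-line regions the share with a hepatocyte peak was 2.74% of 3 lists, 3.69% of 4, 1.23% of 5 and 8.11% of 6 (3 of 37). It was thus lower than in shared regions at 3, 4 and 5 lists and alike at 6, with overlapping intervals at each.

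**Figure D5:**
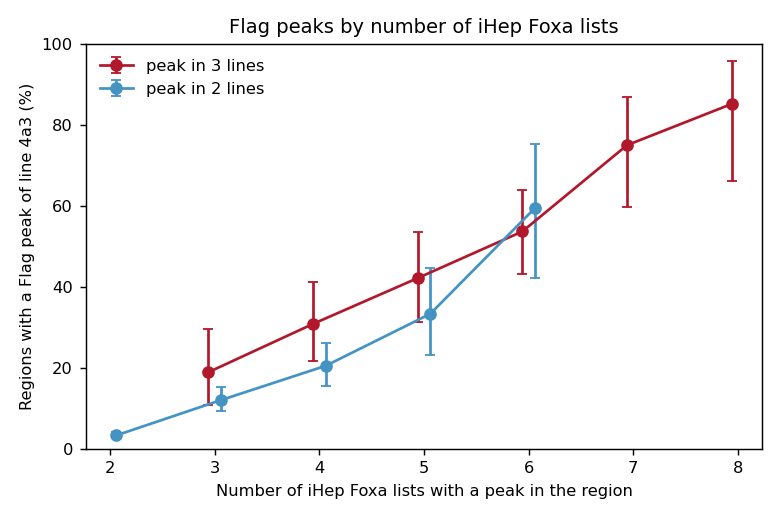
The share of regions with a Flag peak of line 4a3 (y axis, %) is plotted against the number of iHep Foxa lists that hold the region (x axis), for regions of 3 lines and of 2 lines, with exact 95% Clopper-Pearson intervals. Both curves climb, from 18.9% at 3 lists to 85.2% at 8 lists for 3-line regions and from 3.32% at 2 lists to 59.5% at 6 lists for 2-line regions.

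The Flag library of line 4a3 carries the same R code in its title as EGS replicate 1 of Foxa3, and no other list does. In shared regions with a peak of that replicate, 123 of 192 (64.1%) held a Flag peak, and in shared regions without it 63 of 226 (27.9%, interval 22.1 to 34.2) did. In regions of 2 lines the shares were 29.5% with a peak of that replicate and 7.10% without it. The shared regions exceeded the 2-line regions in both strata, and the part of what the R code stands for in the difference between strata was not tested. R codes also recur across lines. Foxa1 EGS replicate 1 and Foxa2 EGS replicate 1 carry the same code, and the title of Foxa2 EGS replicate 2 carries its number without the letter R. Foxa1 EGS replicate 2, Foxa3 EGS replicate 3 and the Flag list of line 4a2 carry another. The part of these codes in the overlaps between lines was not tested.

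Shared regions with a Flag peak of line 4a3 had higher scores in the Foxa lists. Their median score percentile exceeded that of shared regions without one in 8 of 8 iHep Foxa lists (the list with 1 region was left out), by 4.53 to 27.1 points. The gap was widest in Foxa1 EGS replicate 1, where the medians were 77.9 with a Flag peak (148 regions) and 50.8 without (146 regions), and narrowest in the non-EGS Foxa2 list, where they were 93.7 with a Flag peak and 89.2 without. For the 37 regions with a hepatocyte peak the medians were also higher in 8 of 8 lists, by 0.33 to 21.1 points. The Flag peak lay over the stretch shared by the 3 lines in 180 of the 184 regions that have such a stretch and a Flag peak, at a median of 37 bp from its midpoint, and the hepatocyte Foxa2 peak did so in 27 of 33, at 44 bp. The hepatocyte Foxa3 peak lay over that stretch in 6 of 11 regions, at a median of 59 bp and up to 1675.5 bp from its midpoint.

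Of the 37 regions with a hepatocyte peak, 26 held a peak of Foxa2 alone, 5 of Foxa2 and Foxa3, 3 of Foxa3 alone, 1 of Foxa1 and Foxa3, and 2 of all 3 antibodies. A Flag peak of line 4a3 was present in 20 of the 37. Neither a Flag nor a hepatocyte peak was present in 214 of the 418 shared regions (51.2%). The regions found with several hepatocyte antibodies differed from the rest in respects that were seen only after the values were examined. Windows of 10 kb with at least 5 peaks of a hepatocyte list held 6 of the 418 shared regions. The 4 of these with a hepatocyte peak all held peaks of at least 2 hepatocyte lists. Of the 8 regions with peaks of at least 2 hepatocyte lists, 6 were among the 12 shared regions that lack a peak of the non-EGS Foxa2 list, although 406 of 418 shared regions are in that list. In the 406, 31 regions (7.64%, interval 5.25 to 10.7) held a hepatocyte peak, in 29 of them of 1 antibody only. The 12 regions were narrow, with a median of 315.5 bp against 616 bp in the 406. This width was in part set by the choice, since the non-EGS Foxa2 peaks that they lack had a median width of 598 bp in shared regions. In line 4a2 the 12 regions held EGS peaks only, and the hepatocyte lists are all EGS lists. The part of EGS in the difference was not tested. A Flag peak of line 4a3 was present in 5 of the 12.

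The region chr10:86306948-86309767 stood out by rank. Its peak was the highest-scoring of the whole list in all 3 Foxa1 lists of line 4a1, in both Foxa2 EGS lists and the Flag list of line 4a2, and in the hepatocyte Foxa2 list, 7 lists in all. It had rank 4 of 11408 peaks in the non-EGS Foxa2 list and rank 3 of 883 in the Flag list of line 4a3. In line 4a3 it was weaker with the Foxa3 antibody, at percentile 97.0 in EGS replicate 1 and 53.6 in the non-EGS list. The hepatocyte Foxa1 and Foxa3 lists had no peak there.

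Another region, chr17:35848274-35849145, was the top of the Foxa3 EGS lists. No other region had a peak in every iHep Foxa list, and no other shared region was in EGS replicate 3 of Foxa3. It had rank 1 in both Foxa3 EGS lists and rank 2 in the Flag list of line 4a3. In the Foxa1 lists it had rank 3 in EGS replicate 1, rank 2 in EGS replicate 2 and rank 8 in the non-EGS list. In the Foxa2 EGS lists it stood at percentiles 96.0 and 90.7. No hepatocyte list held it. The top peak of the list lay in a shared region in 11 of the 14 lists, and those 11 peaks fell in only 5 shared regions. The exceptions were the non-EGS Foxa3 list and the hepatocyte Foxa1 and Foxa3 lists.

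Other shared regions were found in nearly every list at uneven rank. The region chr8:96910402-96911889, with 8 iHep Foxa lists, a Flag peak of line 4a3 and hepatocyte peaks of Foxa2 and Foxa3, was at percentile 98.8 in the non-EGS Foxa3 list, where its peak was 1055 bp wide, and at 60.6 in the non-EGS Foxa1 list. It lay in a 10 kb window with at least 5 peaks of a hepatocyte list. The regions chr4:137423070-137423720, chr16:30603031-30603638, chr16:90779927-90780602 and chr10:96148782-96149510 each held 8 iHep Foxa lists, the Flag list of line 4a3 and the hepatocyte Foxa2 list. Their hepatocyte Foxa2 peaks stood at percentiles 88.5, 33.4, 44.7 and 67.4, in the order given. Their Flag peaks stood at 98.3, 97.2, 98.0 and 98.4, so that the Flag list ranked all of these regions high, while their ranks in the hepatocyte list varied widely.

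The regions named so far include the 7 that were in at least 10 of the 14 lists. Another 25 were in 9 lists, of which the 3 with the highest mean score percentile are given next. The region chr7:148662190-148662784 lacked the non-EGS Foxa1 list yet had rank 7 of 244 peaks in the hepatocyte Foxa2 list and stood at percentile 99.2 in Foxa2 EGS replicate 2. The region chr13:41447595-41448154, in 8 iHep Foxa lists, had rank 8 in the Flag list of line 4a3 and had no hepatocyte peak. The region chr9:102898411-102899034 was at percentiles 99.3, 99.4 and 99.4 in the 3 Foxa1 lists, at 99.9 in the non-EGS Foxa2 list, and at 89.6 in the non-EGS Foxa3 list, with a peak of both Flag lists and none of hepatocytes.

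A pair of shared regions close together, chr17:39980033-39980420 and chr17:39980925-39982600, lay under 1 Flag peak of line 4a3 that was 5953 bp wide and the highest-scoring of that list. Both held peaks of Foxa1 EGS replicate 2, Foxa2 EGS replicate 2 and Foxa3 EGS replicate 1, and of 2 hepatocyte lists in the first and 3 in the other, which had a hepatocyte Foxa1 peak of 2166 bp. The other was near the bottom of the non-EGS Foxa2 list, at percentile 3.4, and the first was absent from it. Neither had a non-EGS peak of line 4a1 or 4a3, and the first also held a Flag peak of line 4a2. The pair lay in a 10 kb window with at least 5 peaks of a hepatocyte list. The input libraries were not analysed, so whether the signal of this pair exceeded that of input was not tested. The regions chr11:108873063-108873329 and chr17:13745657-13745993 held EGS but no non-EGS peaks, together with a Flag peak of line 4a3 and peaks of 2 hepatocyte antibodies on chromosome 11 and 3 on chromosome 17. The region on chromosome 11 also held a Flag peak of line 4a2, at percentile 28.6.

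The widest shared region was chr3:90416555-90422388, where 1 non-EGS Foxa3 peak spanned all 5834 bp at percentile 99.7 and the Foxa1 and Foxa2 peaks, 106 to 528 bp wide, stood at 50.8 to 78.9. It held peaks of both Flag lists. The narrowest was chr13:29041616-29041767, at 152 bp, in 4 Foxa lists at percentiles 56.6 to 73.3. In 5 of 6 cases the runs of shared regions within 10 kb of each other held 2 regions. The exception held 3, between chr10:96148782 and chr10:96154119, with 10, 3 and 8 lists of the 14 in order of position. Among the runs of 2, the regions chr8:87501902-87503040 and chr8:87508275-87508805 differed in which list ranked them high: the first stood at percentile 98.5 in the non-EGS Foxa3 list, and the other, absent from that list, at 97.3 in Foxa2 EGS replicate 2.

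At the threshold of the rule, the 74 regions with 1 list of each line had mean score percentiles of 12.8 to 83.3 (median 52.2), against a median of 60.8 over all 418. The highest of them were chr11:67553720-67554320, chr2:108356680-108357910 and chr7:128953314-128954444, all in the 3 non-EGS lists. The lowest were chr14:33164431-33165263 (12.8), chr1:148935881-148936334 and chr8:112108666-112109193. Just outside lay 30 regions of 2 lines with a peak of the line they lack within 1 kb, at gaps of 11 bp or more (median 516.5 bp), of which 29 missed line 4a3 and 1 missed line 4a2. A Flag peak of line 4a3 was present in 14 of the 74 (18.9%) and in 6 of the 30 (20%).

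The shared regions were spread over the genome, with 10 on chromosome 19 to 32 on chromosome 6 and 2 on chromosome X. They made up 1.77% (chromosome 4) to 3.32% (chromosome 17) of the iHep Foxa regions on the autosomes and 0.643% of the 311 on X. Windows of 10 kb with at least 5 peaks of a hepatocyte list held 6 of the 418, of which 4 had a hepatocyte peak, and without them 8.01% of the shared regions held one.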

How the data were processed

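The 14 peak lists came from ChIP-seq libraries, and 10 input libraries were not analysed here. The submitters' processing notes name BWA (0.6.2), MACS2 (2.1.0), bedtools (2.16.2) and mm9. For the calling threshold, the use of an input and the role of each tool, nothing is given in the sources used here. A deposited list holds positions and the authors' score of each peak on an unstated scale, used only for ranks within its list. Read depth is unknown. Starts are written 1-based.

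Overlaps (at least 1 bp) were computed with scipy 1.17.1, pandas 2.3.3 and numpy 2.4.6 in Python 3.11.15, with scripts checked on simulated lists. A region's rank is that of its best peak. Tests were exact two-sided sign-flip permutations over the 5 lists that the choice of regions did not use. These lists come from 1 library each, of different antibodies or cells. The p-values therefore measure the spread between such lists, which may be technical, and not a spread between replicates. The labels do not say that replicates are separate inductions. Regions, lists and rules were chosen with earlier results of these data known.

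Named were regions in all 9 iHep Foxa lists, the 10 in most of the 14 lists, up to 5 in both Flag lists and up to 5 in at least 2 hepatocyte lists, the widest, the narrowest, the 3 fullest runs within 10 kb, and the 3 highest and 3 lowest of those in 3 lists. The annotation at hand was of GRCm38.p6, so genes, sequences and motifs were not analysed here.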

Additional observations from a re-analysis of the deposited data

How the results depend on the processing

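The number of shared regions was 180 with the top-scoring 50% of each list, 57 with at least 2 lists of each line, 130 with EGS lists only and 218 with non-EGS lists only. It ranged from 191 (without the non-EGS Foxa3 list) to 418 when each list was left out. The share with a Flag peak of line 4a3 was 52.8% with the top-scoring 50%, 77.2% with at least 2 lists of each line and 70.8% with EGS lists only, and ranged from 40.0% to 63.4% over lists left out, the highest without the non-EGS Foxa3 list. The share with a hepatocyte peak was 19.3% with at least 2 lists of each line and 15.4% with EGS lists only. It ranged from 2.63% (without hepatocyte Foxa2, an alternative chosen after seeing the data) to 12.0% (without non-EGS Foxa3) over lists left out. The cause of these moves was not tested.

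The mean difference over the 5 unused lists stayed above 0 in all 26 alternatives run, from 2.72 points without the Flag list of line 4a3 to 18.7 with at least 2 lists of each line, and was 2.56 as a log2 ratio. No alternative limited the 2-line regions to those with a peak of line 4a3. Within 500 bp at the midpoint, which takes out region width, it was 9.19 points. Its exact p of 0.063 to 0.125 cannot pass 0.05, so it says nothing of stability. The difference in percentile was 4.61 to 15.9 over 6 alternatives (exact permutation p 0.125 to 0.625). No paired analysis was possible because no result comes from a test between groups of libraries: the tests set regions against regions within each Flag or hepatocyte list, and the other results are overlaps of lists. Gene lists, nearest genes and the forkhead motif were not run, for want of mm9 annotation and sequence. Unknown depth limits every statement on absent peaks.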
